A study of Mus musculus with 6 samples.

Results

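The class I olfactory receptors (ORs) *Olfr543* to *Olfr692* were followed in single-cell RNA-seq of the mouse main olfactory epithelium. They were chosen by name alone, as the genes named *Olfr* plus a number from 543 to 692 with no pseudogene suffix. This gave 118 of the 24564 genes counted and 118 of the 1116 OR genes without a pseudogene suffix. All of them lay in 1 array on chromosome 7 (chr7:102476579-105369355, GRCm38), 2.89 Mb long, with 62 on the plus and 56 on the minus strand. Their start sites followed the order of their numbers. In the annotation 115 were protein coding, and the 114 with a MOR family name all belonged to class I families (MOR1 to MOR42).

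Vertebrate ORs fall into 2 classes by sequence. Class I ORs resemble the receptors of fish, are clustered in a single array in mice, and many detect carboxylic acids and other hydrophilic odorants. Each olfactory sensory neuron (OSN) stably transcribes 1 allele of 1 OR gene, which is called OR choice. OSNs that choose a class I OR lie mostly in the dorsal zone of the epithelium, where the enzyme NQO1 is made, and send their axons to the dorsal olfactory bulb.

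The 6 libraries came from main olfactory epithelium dissociated with papain. In the 2 swap libraries (labelled Cbx*/* with Cre), Cre recombination removes *Cbx1*, which encodes the heterochromatin protein HP1β, and places *Cbx5*, which encodes HP1α, under the *Cbx1* promoter. The Cre used is active in the forebrain and in neuronal lineages including the OSNs. Control replicate 1 was labelled WT with Cre, and control replicate 2 was labelled Cbx*/* without Cre, so the controls differed from each other in the *Cbx1* allele and in Cre. In the fifth library (gg8-tTA; tetOP2iresGFP, called *tetOP2* here) the *Gng8* promoter, active in the OSN lineage, drives tTA and through it the P2 receptor *Olfr17* together with GFP. The sixth library (gg8-tTA) carried the driver alone and is called *gg8tTA*. The sources used give no age for these mice. By *Xist* and *Ddx3y*, swap replicate 1, *tetOP2* and *gg8tTA* were female and the other 3 libraries were male, so sex and genotype were not balanced.

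The libraries held 32005196 to 63277934 UMIs (unique molecular identifiers, each standing for 1 counted RNA molecule). Mature OSNs had a minimum of 10 UMIs of *Omp*, the marker of maturity, and fewer of *Gap43*, the marker of immature OSNs. There were 5534 of them, 685 to 1303 per library, at a median of 11309 to 12951 UMIs per cell, and each of the 8 mature OSN markers was found in at least 20% of these cells in every library. Few cell barcodes were shared, at most 13 between any 2 libraries. The libraries differed in the RNA of supporting sustentacular cells found in their OSNs. In class I cells the summed level of the sustentacular list was 3439 and 3844 CPM (UMIs scaled to a common total per library) in swap replicates 1 and 2 and 2934 CPM in control replicate 2, against 72.4 CPM in control replicate 1, 302 CPM in *tetOP2* and 307 CPM in *gg8tTA*. In cells that chose a class II OR it was 1517, 3258, 3355, 84.3, 1567 and 496 CPM in the same order. The classes thus also differed within a library, most clearly in swap replicate 1 and *tetOP2*.

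A mature OSN was said to choose the OR with the most UMIs in the cell, if that OR had at least 3. Of 5011 choosing cells, 504 (10.1%) chose an OR of the array. In swap replicates 1 and 2 the share was 11.1% (74 of 668 choosing cells) and 11.2% (107 of 956), and in control replicates 1 and 2 it was 11.2% (107 of 959) and 9.61% (113 of 1176). In *tetOP2* it was 4.76% (31 of 651) and in *gg8tTA* 12% (72 of 601). The 5 libraries other than *tetOP2* thus lay within a narrow range. In sustentacular cells, which express no OR, 0% to 0.307% of cells had 3 UMIs of an array OR when all cells were thinned to 3000 UMIs, against 4.53% to 10.5% of mature OSNs (unthinned, 0% to 0.515% and 4.82% to 10.8%). The median depths before thinning were 12778 to 19698 UMIs in sustentacular cells and 11309 to 12974 in mature OSNs.

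Choice within the array was spread widely but unevenly. At least 1 mature OSN chose 98 of the 118 ORs, and 20 were chosen by none. Only 15 had at least 10 choosing cells, none had 20, and 18 were chosen by a single cell. The 20 most chosen ORs held 247 of the 504 cells (49.0%). In order these were *Olfr692* (19 cells), *Olfr666* and *Olfr571* (18 each), *Olfr544* (17), *Olfr613* (16), *Olfr649* (15), *Olfr594*, *Olfr683* and *Olfr672* (13 each), *Olfr591* (12), *Olfr655*, *Olfr689*, *Olfr665*, *Olfr653* and *Olfr691* (10 each), *Olfr543*, *Olfr556* and *Olfr615* (9 each), and *Olfr550* and *Olfr686* (8 each). Neighbours in this order differed by 0 to 2 cells, within counting error. Most ORs on the list were chosen in most libraries, but *Olfr683* was chosen in the 2 control libraries only. *Olfr672* and *Olfr665* were chosen in these and *gg8tTA* only, and *Olfr686* in swap replicates 1 and 2 and control replicate 2 only. *Olfr545*, which the study uses to mark the dorsal zone, was chosen by 6 cells, of which 0 were in swap replicate 1, 2 in swap replicate 2, 1 in control replicate 1, 2 in control replicate 2, 1 in *tetOP2* and 0 in *gg8tTA*.

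**Figure D1:**
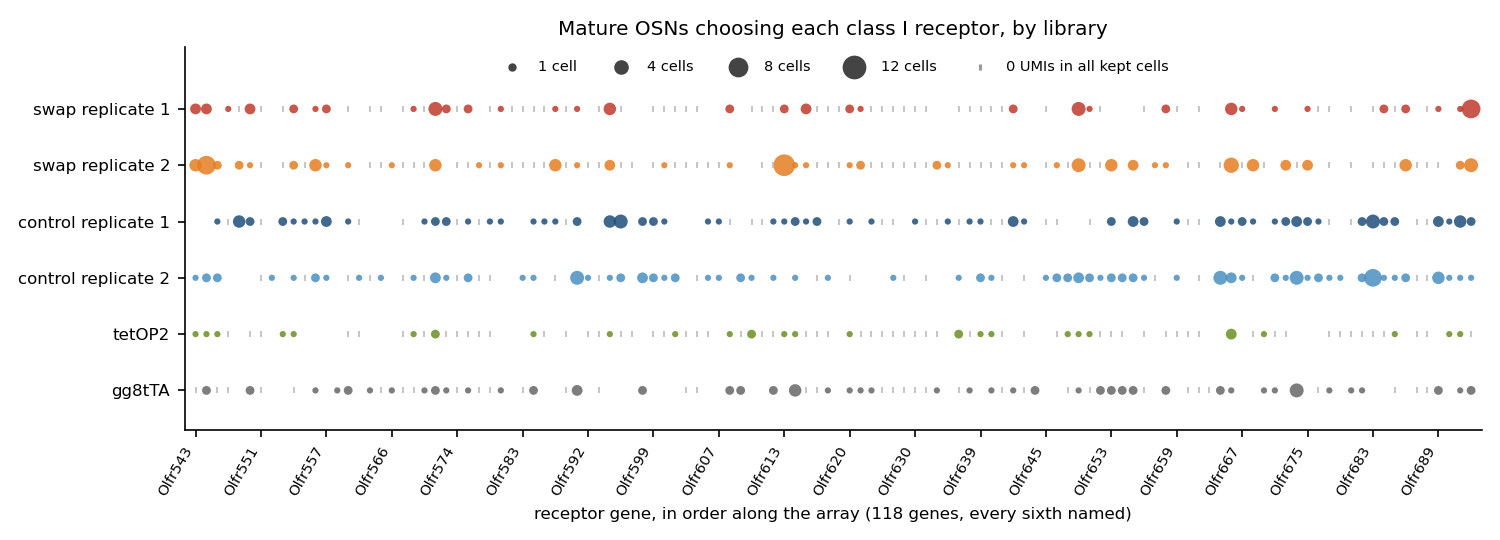
Mature OSNs that chose each of the 118 class I ORs, in array order (horizontal axis) and by library (vertical axis); the area of a point is proportional to the number of choosing cells, and a grey tick marks an OR with 0 UMIs over all kept cells of the library. The largest point is *Olfr613* in swap replicate 2 (12 cells), and grey ticks are more frequent in the swap libraries than in the controls.

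Along the array, the first 40 ORs (*Olfr543* to *Olfr596*) held 26.5% to 43.2% of the class I cells of a library, the next 39 (*Olfr597* to *Olfr645*) held 16.2% to 35.5%, and the last 39 (*Olfr646* to *Olfr692*) held 32.3% to 54.0%. The middle stretch held the fewest cells in the 4 swap and control libraries (16.2%, 22.4%, 22.4% and 19.5%), while in *tetOP2* and *gg8tTA* it held 35.5% and 30.6%. The 95% exact binomial intervals of the middle share overlapped between all libraries, from 8.67% to 26.6% in swap replicate 1 to 19.2% to 54.6% in *tetOP2*. Intervals here and elsewhere cover counting error only.

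Of the 20 ORs chosen by no cell, 8 nevertheless had UMIs in mature OSNs, and 12 had none. Of the 20, 8 formed a pair with another member that shared over 20% of the 31-base words of the gene with fewer. So did 19 of the 98 chosen ORs. The 3 unchosen ORs with the most UMIs over all kept cells were *Olfr611* (79 UMIs in control replicate 2 and 199 in *gg8tTA*, 0 in the other 4), *Olfr603* (45 in control replicate 1 and 19 in control replicate 2, 0 in the other 4) and *Olfr661* (50 in control replicate 2, 1 in swap replicate 1, 0 in the others). *Olfr603* and *Olfr611* each have a nearly identical copy in the array, *Olfr596* and *Olfr612*, which were chosen. Because the UMIs of these 4 genes cannot be split with certainty between the copies, stretches of their coding sequences are shown in transcript orientation (GRCm38, GENCODE models). *Olfr596* (chr7:103305648-103312782, plus strand) and *Olfr603* (chr7:103383062-103386177, minus strand) differ at 5 of 939 coding bases, and their last 90 coding bases are identical.
*Olfr596*, coding bases 850 to 939: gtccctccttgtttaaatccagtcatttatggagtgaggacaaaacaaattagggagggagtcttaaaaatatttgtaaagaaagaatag
*Olfr603*, coding bases 850 to 939: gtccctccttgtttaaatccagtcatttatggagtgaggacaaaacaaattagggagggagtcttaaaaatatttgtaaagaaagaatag

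*Olfr611* (chr7:103516465-103520846, minus strand) and *Olfr612* (chr7:103537222-103542717, minus strand) differ at 24 of 972 coding bases, with the last 90 again identical. The 90 bases that differ most are shown, with the 10 differing bases in capitals.
*Olfr611*, coding bases 426 to 515: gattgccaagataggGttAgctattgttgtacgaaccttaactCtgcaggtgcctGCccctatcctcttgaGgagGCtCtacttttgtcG
*Olfr612*, coding bases 426 to 515: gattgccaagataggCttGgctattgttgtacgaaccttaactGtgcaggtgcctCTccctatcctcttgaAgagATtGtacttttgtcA

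Besides the chosen OR, another reached 3 UMIs in 47 of the 504 class I cells (9.33%) and in 274 of 4074 cells that chose a class II OR (6.73%). Class II here means the 986 other OR genes, without *Olfr17* and without 11 further class I ORs outside the number range. The share was higher in class I cells in 6 of 6 libraries: 10.8% against 5.41% in swap replicate 1, 8.41% against 6.64% in swap replicate 2, 9.35% against 4.39% in control replicate 1, 9.73% against 8.91% in control replicate 2, 12.9% against 9.83% in *tetOP2* and 6.94% against 6.37% in *gg8tTA*. The mean difference was 2.77 ± 2.07 percentage points (SD, n = 6; exact two-sided sign-flip permutation test, p = 0.03125, the smallest that 6 libraries allow, and 0.0625 after Benjamini-Hochberg adjustment over the 4 class comparisons made this way). Most of these second ORs were relatives or neighbours of the chosen one. In 31 of the 47 cells (66.0%) the second OR shared a 31-base word with the chosen one or lay within 2 OR genes of it, and so did 150 of the 274 second ORs in class II cells (54.7%). Cells with a second OR of neither kind made up 3.17% of class I and 3.04% of class II cells. Without the related and neighbouring second ORs, a comparison added after the data had been seen, the mean difference was 0.622 points (exact permutation test, p = 0.469).

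The second ORs were themselves members of the array in 35 of the 47 cells. All 7 cells that chose *Olfr596* also held 7 to 11 UMIs of its copy *Olfr603*, beside 23 to 90 of *Olfr596*. In 3 of 4 cells that chose *Olfr612*, the copy *Olfr611* had 38 to 82 UMIs, or 89.6% to 97.4% of the level of *Olfr612*. These 2 pairs share 84.4% and 60.1% of the 31-base words of the gene with fewer, so UMIs of *Olfr596* and *Olfr603*, and of *Olfr611* and *Olfr612*, are uncertain in their split. A different kind of pair shares no 31-base word but overlaps in the annotation. *Olfr615* (plus strand) and *Olfr616* (minus strand) end on each other over 52 bases (chr7:103563747-103563798), and 5 of 5 cells that chose *Olfr616* held 5 to 13 UMIs of *Olfr615*, as 2 of 9 cells that chose *Olfr615* held 18 to 24 of *Olfr616*. *Olfr613* ends 0.573 kb before *Olfr615* on the same strand, and 6 of its 16 choosing cells held 3 to 13 *Olfr615* UMIs. The *Olfr643* model overlaps 8 others, from *Olfr638* to *Olfr646*, so counts of these genes are uncertain as well. Second ORs with no such relation reached at least 78.5% of the level of the chosen OR in 5 cells. In 3 of these the second OR was a member, namely *Olfr675* at 124 UMIs beside *Olfr683* at 130, *Olfr675* at 68 beside *Olfr667* at 77, and *Olfr649* at 62 beside *Olfr613* at 79. In the others it was *Olfr17* at 19 beside *Olfr571* at 21 in *tetOP2*, and the class II OR *Olfr808* at 12 beside *Olfr591* at 14 in swap replicate 1. Whether these cells were doublets that the doublet call missed was not tested.

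The level of the chosen OR differed widely between members. UMIs are counted per molecule, with no scaling by gene length, and the medians here pool cells of all 6 libraries, of which each OR drew different shares. Over all 504 cells the chosen OR had 3 to 485 UMIs, with a median of 72. Among ORs with at least 10 cells the median per cell ran from 27.5 UMIs for *Olfr571* (8 to 69 over 18 cells) to 225.5 for *Olfr665* (109 to 468 over 10 cells) and 264 for *Olfr672* (140 to 485 over 13 cells). The order of these last 2 turned by library, with medians of 371 UMIs for *Olfr665* and 196 for *Olfr672* in control replicate 2 (5 cells each), but 161 and 371 in *gg8tTA* (2 and 5 cells). Neither was chosen in a swap library. The *Olfr571* cells and the *Olfr665* and *Olfr672* cells did not overlap, and *Olfr571* was chosen in all 6 libraries, with library medians of 14.5 to 56 UMIs. Between these ends the medians were 56 for *Olfr613*, 59 for *Olfr594*, 60 for *Olfr649*, 61 for *Olfr683*, 77.5 for *Olfr591*, 78.5 for *Olfr666*, 86 for *Olfr692*, 104 for *Olfr691*, 104.5 for *Olfr655*, 105.5 for *Olfr689*, 116.5 for *Olfr653* and 119 for *Olfr544*. Neighbours among these 12 overlapped in their range over cells. Widening to the 41 ORs with at least 5 cells, the lowest medians were 12 UMIs for *Olfr642* (4 to 395), 12.5 for *Olfr671* (6 to 23), 16 for *Olfr616* (10 to 24) and 18.5 for *Olfr575* (6 to 40), and *Olfr586* joined the highest at 237.5 (151 to 360). The models of *Olfr642* and *Olfr616* overlap others, as given above, so their levels are uncertain. The number of choosing cells and the median level were nearly unrelated over these 41 ORs (Spearman's rho 0.12, a description over ORs that share libraries).

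**Figure D2:**
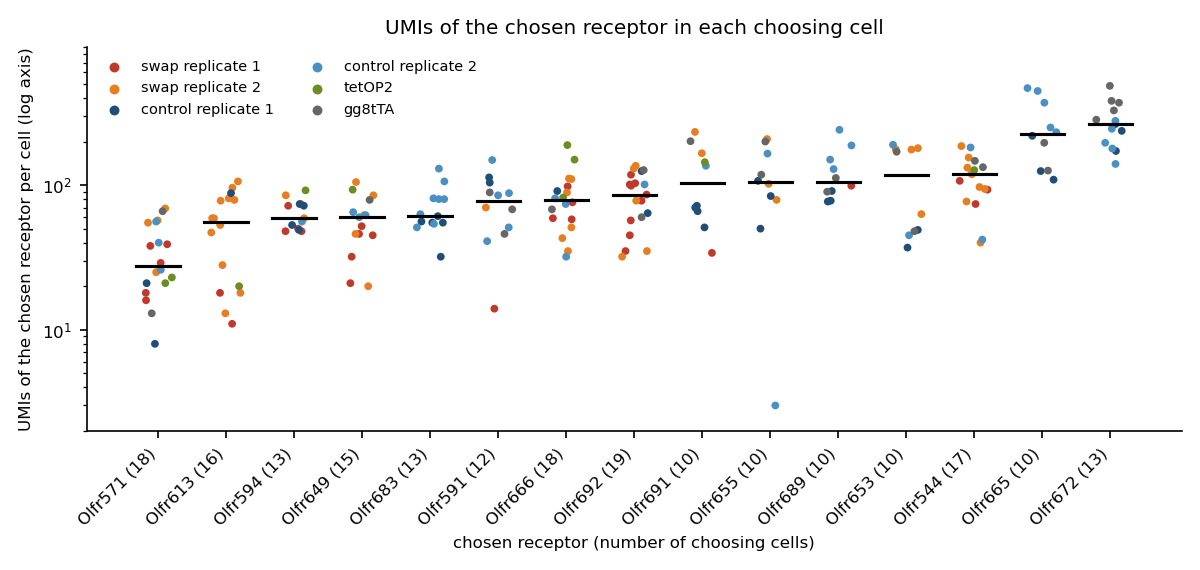
UMIs of the chosen OR (vertical log axis) in every mature OSN that chose 1 of the 15 class I ORs with at least 10 choosing cells (horizontal axis, ordered by median, with the number of cells); each point is a cell coloured by library and the black lines are medians. The median rises from 27.5 UMIs for *Olfr571* to 264 for *Olfr672*, and cells of several libraries lie together within most ORs.

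Against class II, the chosen class I OR had fewer UMIs in 5 of 6 libraries. The medians were 47 against 63 UMIs in swap replicate 1, 79 against 97 in swap replicate 2, 61 against 71 in control replicate 1, 74 against 106 in control replicate 2 and 71 against 87.5 in *tetOP2*, but 106 against 92 in *gg8tTA*. The mean difference of the log2 medians was -0.26 ± 0.25 (SD, n = 6) and did not pass the test (exact two-sided sign-flip permutation test, p = 0.0625; 0.0833 after adjustment). Class I cells were also slightly shallower in 6 of 6 libraries, by a mean log2 difference of -0.10 ± 0.05 in median UMIs per cell (exact permutation test, p = 0.03125; 0.0625 after adjustment). Per 10000 UMIs of the cell the difference in the chosen OR was -0.16 ± 0.21 (exact permutation test, p = 0.156). A lower level of class I than of class II ORs was thus not shown beyond the spread between libraries.

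Cells that chose an OR of the array carried the dorsal marker *Nqo1*, which encodes a quinone reductase, in 455 of 504 cases (90.3%). By library the share with an *Nqo1* UMI was 89.2% in swap replicate 1, 81.3% in swap replicate 2, 94.4% in control replicate 1, 91.2% in control replicate 2, 90.3% in *tetOP2* and 97.2% in *gg8tTA*. In class II cells it was 28.4% to 39.2%. The 2 classes did not overlap in any library. Most members were uniform. In 30 of the 41 ORs with at least 5 choosing cells, *Olfr692* (19 cells), *Olfr666* (18 cells) and *Olfr683* and *Olfr672* (13 cells each) among them, every cell had *Nqo1*.

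A few members departed from this pattern. In 7 of the 41 ORs, picked after their values were seen, fewer than 75% of the cells had *Nqo1*: *Olfr613* (18.8% of 16 cells), *Olfr686* (37.5% of 8), *Olfr556* (44.4% of 9), *Olfr571* (50% of 18), *Olfr557* (57.1% of 7), *Olfr575* (66.7% of 6) and *Olfr649* (73.3% of 15). Together their 79 cells held 41 of the 49 class I cells without *Nqo1*, and 98.1% of the 425 cells of the other ORs had it. They were not neighbours in the array, since they ran from *Olfr556* to *Olfr686*. The low share did not come from 1 library. For *Olfr613*, swap replicates 1 and 2 had *Nqo1* in 0 of 2 and 3 of 12 cells, and neither the 1 cell of control replicate 1 nor that of *tetOP2* had it. For *Olfr571* the 2 swap libraries had it in 3 of 5 and 2 of 4 cells, the 2 controls in 1 of 2 and 0 of 3, *tetOP2* in 1 of 2 and *gg8tTA* in 2 of 2.

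**Figure D3:**
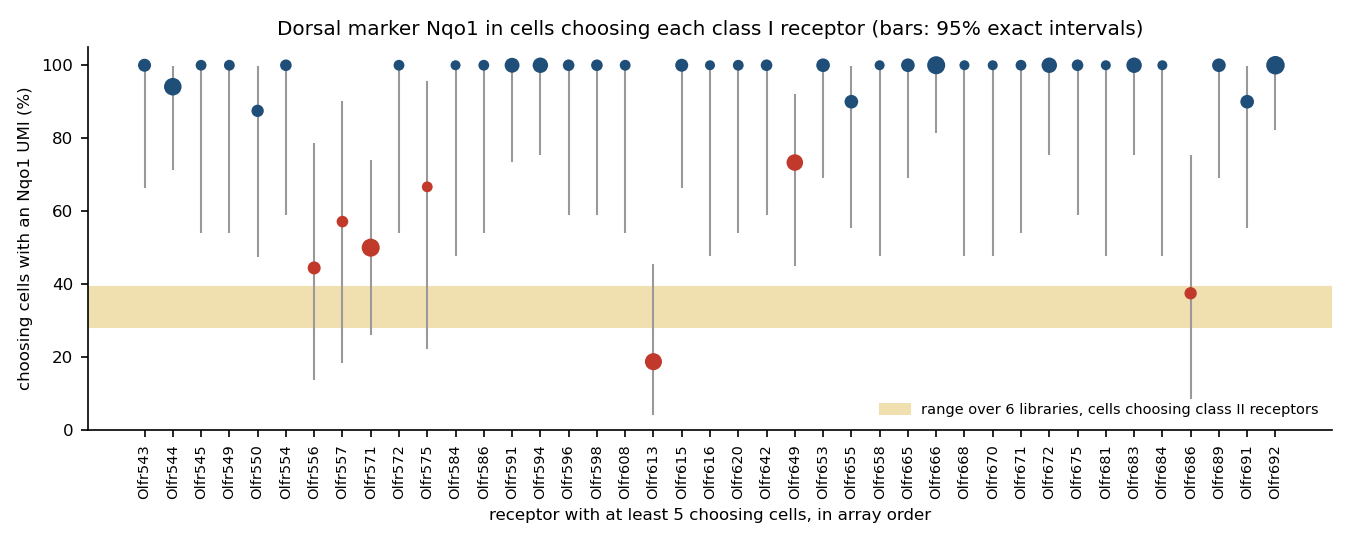
Share of choosing mature OSNs with at least 1 *Nqo1* UMI (vertical axis, percent) for the 41 class I ORs with at least 5 choosing cells, in array order (horizontal axis); bars are 95% exact binomial intervals, point size grows with the number of cells, and the band is the range of class II cells over the 6 libraries (28.4% to 39.2%). In red are the 7 ORs under 75%, with *Olfr613* lowest at 18.8%.

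The 7 ORs were not alike in other zonal genes. Summed over their cells, *Olfr686* and *Olfr556* had high *Nfix*, which encodes a nuclear factor I protein of ventral OSNs (484 and 342 CPM, against 14.1 CPM for the 425 cells of the other members and 369 CPM in class II cells). They were also low in the dorsal gene *Acsm4*, which encodes an acyl-CoA synthetase (20.2 and 137 CPM, against 679 and 156 CPM). *Olfr571* was intermediate in both, at 157 CPM of *Nfix* and 234 CPM of *Acsm4*. *Olfr613* had almost no *Nfix* (3.19 CPM), kept *Acsm4* (571 CPM), and was high in *Nrp2*, which encodes an axon guidance receptor (325 CPM, against 10.0 CPM for the other members and 85.7 CPM in class II cells), with *Nrp2* UMIs in 93.8% of its 16 cells. *Olfr649*, *Olfr557* and *Olfr575* had *Acsm4* in every cell (883, 804 and 891 CPM) and little *Nfix* (3.89, 8.84 and 25.5 CPM). They had more *Cidea*, a lipid droplet gene higher in ventral OSNs (148, 283 and 305 CPM, against 44.4 CPM for the other members). This did not set them apart within the 7, since *Cidea* was also high in *Olfr613* (313 CPM), *Olfr571* (246 CPM) and *Olfr556* (162 CPM). *Olfr686* had 40.3 CPM. *Olfr615*, with *Nqo1* in 9 of 9 cells, also had 244 CPM of *Cidea*, so the markers did not divide the ORs in the same way.

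The 7 ORs took a larger share of class I cells in the swap libraries. In swap replicates 1 and 2 they held 25.7% and 28% of the class I cells (19 and 30 cells), against 7.48% and 11.5% in control replicates 1 and 2 (8 and 13 cells), 12.9% in *tetOP2* (4 cells) and 6.94% in *gg8tTA* (5 cells). The 7 were picked with values from all these libraries and had to have at least 5 cells. *Olfr613* had 2 and 12 cells in swap and 1 in control replicate 1. *Olfr686* had 2 and 4 cells in swap and 2 in control replicate 2. Both passed this minimum only through the swap libraries. *Olfr556* had 1 and 4 cells in swap, 1 and 2 in control and 1 in *gg8tTA*. *Olfr557* had 2 and 1 cells in swap and 3 and 1 in control. *Olfr575* had 2 and 0 cells in swap, 1 and 2 in control and 1 in *gg8tTA*. Without its swap cells none of these ORs would have reached the minimum. A larger share in swap was thus partly built in, and no test is given.

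Over all genes other than ORs, the class I cells were compared with the class II cells of the same library (edgeR's quasi-likelihood test on UMIs summed by class within each library, blocked by library, with Benjamini-Hochberg adjustment over 9982 genes). A gene was called at an adjusted p below 0.05 and an absolute log2 fold change above 0.58. Higher in class I cells were 204 genes (2.04%), and lower were 162 (1.62%). Of the 7 genes of the dorsal list, 6 were higher in class I cells and *Sema3f* was not called (log2 fold change 0.38). Of the 10 ventral genes, 8 were lower, and *Rprm* and *Pcp4l1* were not called. Several of these zonal genes had been called before in the same libraries, so this is not independent evidence. The call of 1 ventral gene, *Avp*, was lost when predicted doublets were kept (adjusted p = 0.505 by edgeR).

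Among all genes the smallest adjusted p belonged to *Fam19a4*, which encodes a secreted chemokine-like protein. Its level was 39.5 to 141 CPM in class I cells (median 84.5) and 0.0645 to 2.04 CPM in class II cells (median 0.43), a log2 difference of 6.84 (SE 0.24; edgeR, adjusted p = 4.89e-12). Over all libraries 55.0% of class I cells and 0.368% of class II cells had a *Fam19a4* UMI. Of the 40 cells that chose 1 of the 11 class I ORs outside the number range, 52.5% had it. Next came *Acsm4* (682 ± 109 against 163 ± 43.3 CPM, SD, n = 6), *S100z*, which encodes a small calcium-binding protein (60.3 ± 23.6 against 8.13 ± 2.86 CPM), *Papss2*, which makes the donor for sulfation (197 ± 130 against 62.7 ± 38.3 CPM), and *Acss2*, which makes acetyl-CoA from acetate (167 ± 35.2 against 56.3 ± 9.61 CPM). All 4 were higher in class I cells in 6 of 6 libraries. The lower genes with the smallest adjusted p were *Gldc*, a subunit of the glycine cleavage system (25.9 ± 8.42 against 154 ± 37.6 CPM), *Nfix* (32 ± 18.3 against 366 ± 72.2 CPM), *Bcl11b*, which encodes a zinc finger repressor known to bias OSNs away from class I choice (17.1 ± 8.55 against 116 ± 12.4 CPM), the adhesion gene *Ncam2* (8.82 ± 6.20 against 82.9 ± 29.0 CPM) and the carboxypeptidase gene *Cpn1* (10.5 ± 4.06 against 44.5 ± 7.10 CPM). These 5 were lower in 6 of 6 libraries.

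**Figure D4:**
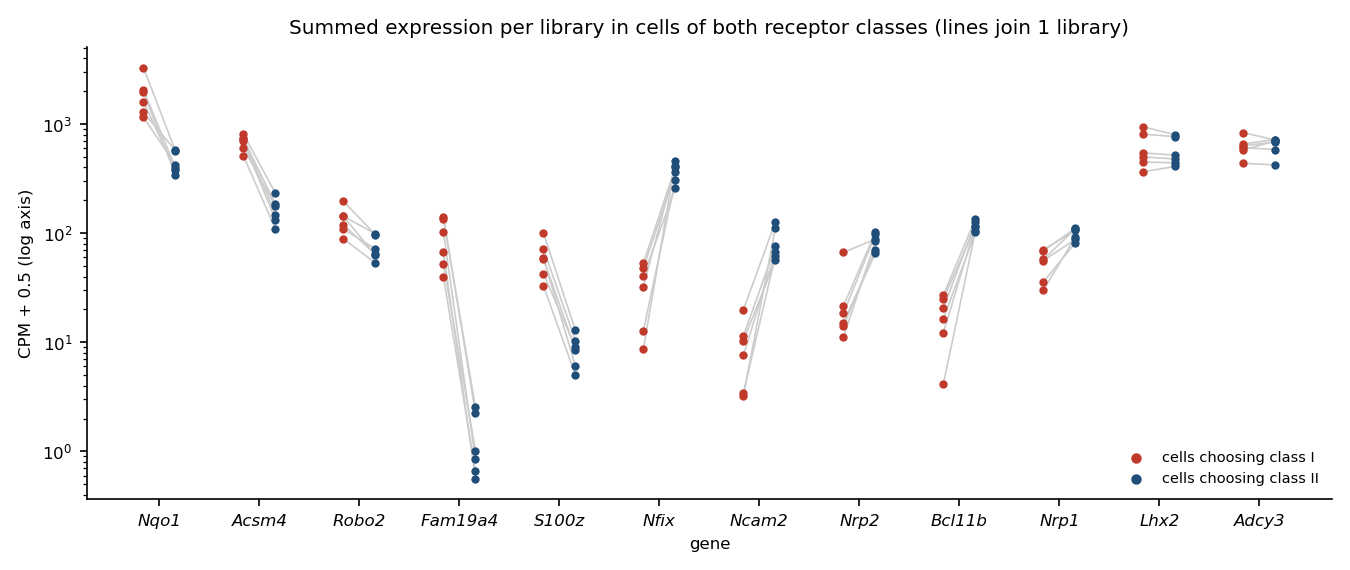
Summed expression (CPM plus 0.5, log axis) of 12 genes in mature OSNs choosing class I ORs (red) and class II ORs (blue), with 1 point per library and lines joining the 2 classes of 1 library. *Fam19a4* is the most different gene (39.5 to 141 against 0.0645 to 2.04 CPM), while *Lhx2* and *Adcy3* overlap between the classes.

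Few genes of OR choice, folding and signalling were called between the classes. Of 10 factors tied to OR choice, *Bcl11b* alone was called, and the regulators *Lhx2*, *Ldb1*, *Ebf1* and *Ebf2* had log2 differences of 0.05, -0.16, 0.01 and -0.05. None of 6 folding and trafficking genes passed, with *Rtp1*, which encodes a chaperone for ORs, at -0.15 and *Atf5*, a factor of the unfolded protein response to ORs, at -0.05. Of 10 tested signal transduction genes none was called, but 4 had an adjusted p below 0.05 (edgeR) and smaller differences than the limit, all lower in class I cells: *Stoml3* at -0.54, *Cnga4* at -0.37, *Ano2* at -0.33 and *Gng13* at -0.18. Of 12 axon guidance genes *Robo2*, a receptor for Slit proteins, was higher (132 ± 36.9 against 74.1 ± 18.9 CPM), and the semaphorin receptors *Nrp1* (52.7 ± 16.9 against 97.4 ± 12.4 CPM) and *Nrp2* (24.0 ± 20.9 against 83.9 ± 14.3 CPM) were lower. The highest *Nrp2* level in class I cells, 66.0 CPM in swap replicate 2, was in the library with 12 of the 16 *Olfr613* cells.

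Class II OSNs of the dorsal zone also express *Nqo1*, so the comparison was repeated with cells of both classes that had at least 2 *Nqo1* UMIs. In this fit (8970 genes) 69 genes (0.769%) were higher in class I cells and 51 (0.569%) lower by edgeR. Both fits shared 95 calls (26.0% of the 366 and 79.2% of the 120), all with the same sign. *Fam19a4* remained the most different (98.7 ± 46.4 against 1.86 ± 2.95 CPM, log2 difference 5.79), followed by *Ppa1*, an inorganic pyrophosphatase gene (1704 ± 446 against 802 ± 191 CPM), *Acss2* (171 ± 39.3 against 87.3 ± 14.1 CPM), *S100z* (61.1 ± 24.2 against 10.1 ± 5.32 CPM) and the transporter gene *Slc5a8*. In class I cells *Slc5a8* had 85.8, 125 and 61.8 CPM in swap replicates 1 and 2 and control replicate 2. It had 0.973, 3.82 and 2.65 CPM in control replicate 1, *tetOP2* and *gg8tTA*, where class I cells held less sustentacular RNA. Whether that RNA gave the difference was not tested. The call of *Slc5a8* was lost when predicted doublets were kept (edgeR, adjusted p = 0.180). *Nfix* (15.0 ± 7.25 against 107 ± 25.2 CPM), *Bcl11b* (10.5 ± 8.55 against 91.6 ± 15.0 CPM), *Gldc* (20.2 ± 7 against 79.5 ± 27.9 CPM) and *Nrp1* (41.8 ± 16 against 92.2 ± 17.7 CPM) were lower in 6 of 6 libraries. *Cpm*, another carboxypeptidase gene, was lower in 5 of 6 and lost its call in the same way (edgeR, adjusted p = 0.129). Of the dorsal list only *Cd55* was still called higher. *Acsm4* and *Robo2* stayed higher in 6 of 6 libraries, but by less than the limit for a call. Their log2 differences were 0.55 and 0.47 (edgeR, adjusted p = 4.98e-07 and 0.000601). *Socs2*, *Sema3f* and *Cartpt* had log2 differences of 0.25, 0.18 and -0.07. That of *Nqo1* was 0.32, but both classes were selected on *Nqo1* here, so it is no result. The axon guidance gene *Kirrel3*, not called over all cells, was called lower here (-0.75). Of the ventral list *Nfix*, *Ncam2* and *Ifi27* were still lower, while *Pcp4l1* was now higher. The call of *Ifi27* was lost with predicted doublets kept and that of *Pcp4l1* with *Olfr17* cells kept (edgeR, adjusted p = 0.118 and 0.0812).

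In the swap mice, the share of OSNs that chose an OR of the array was close to that of the controls, while fewer different ORs of the array were chosen. The share was 11.1% ± 0.08 in swap and 10.4% ± 1.10 in control (SD, n = 2 each), a difference of 0.752 percentage points (exact permutation test, p = 0.667). With 2 libraries against 2 the smallest p possible is 0.333, so none of these comparisons could pass. The class I cells of the 4 libraries chose 33, 40, 60 and 64 different members in swap replicates 1 and 2 and control replicates 1 and 2. At an equal number of 72 class I cells these were 32.6, 33.3, 47.7 and 48.3, against 45 in *gg8tTA*. The difference between swap and control was -15.0 members (exact permutation test, p = 0.333, the smallest possible), with no overlap. In an equal number of 72 class II cells the numbers were 64.2, 64, 67 and 67.6, and in 591 class II cells 302, 307, 373 and 380 of a far larger set of ORs. The 5 most chosen members of a library held 36.5% and 34.6% of its class I cells in swap, and 20.6% and 23.9% in control.

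**Figure D5:**
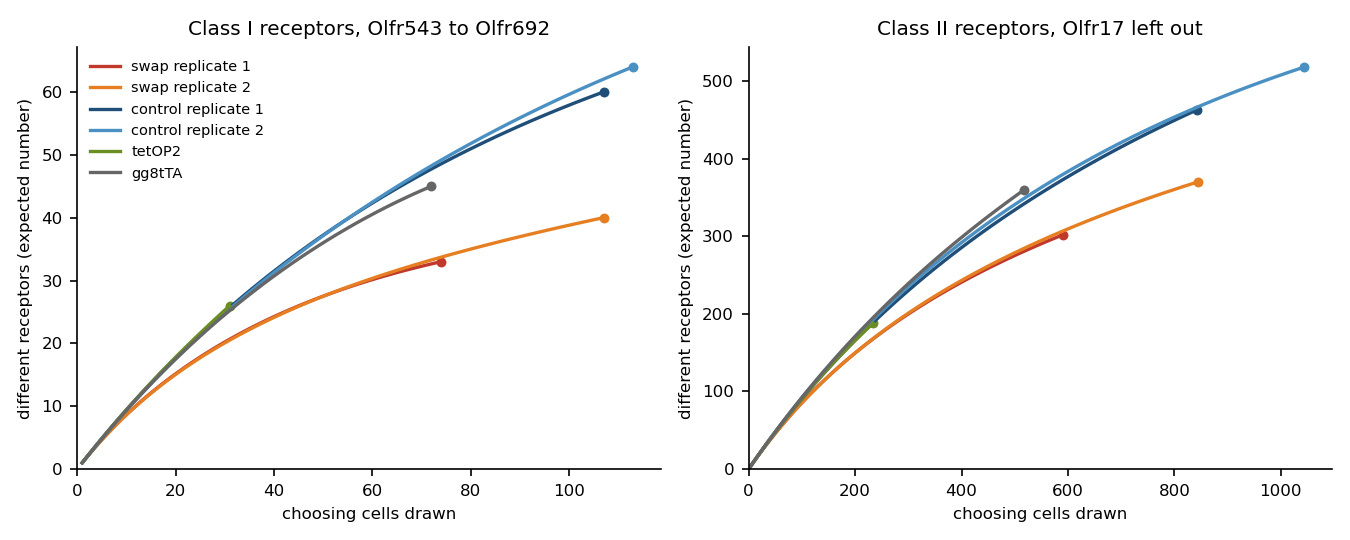
Expected number of different ORs (vertical axis) in a given number of choosing mature OSNs drawn from a library (horizontal axis), for the class I ORs of the array (left) and class II ORs (right), with 1 line per library ending at its own number of cells. At 72 class I cells the swap lines stand at 32.6 and 33.3 members and the control lines at 47.7 and 48.3.

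The members chosen in swap and in control overlapped, and more members were chosen in control. Of the 85 members chosen in a control library 41 (48.2%) were chosen in a swap library, and these were 83.7% of the 49 members chosen in swap. The class I cells numbered 74 and 107 in swap and 107 and 113 in control, and these shares were not adjusted for that. Both shares count the same 41 members, so they differ only because more members were chosen in control. They were not computed for class II ORs. Of the 39 members chosen in both controls, 17 (43.6%) were chosen in neither swap library, as were 102 of 305 class II ORs (33.4%). Conversely, 3 of the 24 members chosen in both swap libraries were chosen in neither control, as were 24 of 196 class II ORs. Over the 118 members the number of choosing cells had a Spearman's rho of 0.57 between the swap libraries, 0.33 between the controls and 0.08 to 0.27 between a swap and a control library, as a description of ORs measured in the same libraries.

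Many members had no UMI in the swap libraries. Swap replicates 1 and 2 held 757 and 1042 mature OSNs, against 1062 and 1303 in control replicates 1 and 2. The counts below were not adjusted for this. Over all kept cells, 50 members (42.4%) had no UMI in swap replicate 1 and 60 (50.8%) in swap replicate 2, against 27 (22.9%) in control replicate 1, 23 (19.5%) in control replicate 2, 61 (51.7%) in *tetOP2* and 36 (30.5%) in *gg8tTA*. No UMI in either swap library was found for 43 of the 118 (36.4%), against 208 of 986 class II ORs (21.1%) and 17.5% of all genes. For the 2 controls together the numbers were 9 members (7.63%) and 81 class II ORs (8.22%). A UMI in both controls and in neither swap library was found for 19 members (16.1%), 92 class II ORs (9.33%) and 0.851% of all genes. The reverse held for 1 member, *Olfr576* (3 and 5 UMIs in mature OSNs of the swap libraries, and its model overlaps *Olfr577*), for 16 class II ORs (1.62%) and for 0.558% of all genes. ORs are expressed in few cells, so a share of all genes is a loose background here, and the class II ORs are the closer one.

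Some members without a UMI in swap lay side by side, and whether more did so than their number alone would give was not tested. There were 5 runs of at least 3 successive members with none in either swap library. These were *Olfr582* to *Olfr585* (4 members with 144 and 155 UMIs in control replicates 1 and 2), *Olfr601* to *Olfr605* (3 members, 147 and 154 UMIs), *Olfr617* to *Olfr619* (3 members, 141 and 145 UMIs), *Olfr623* to *Olfr631* (6 members, 71 and 17 UMIs) and *Olfr635* to *Olfr641* (5 members, 72 and 139 UMIs). Each run had UMIs in both controls. The *gg8tTA* library had 228, 1, 54, 9 and 228 UMIs in the same runs, and *tetOP2* 77, 112, 1, 0 and 151.

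Summed over the mature OSNs of each library, 60 members passed the filter on low counts and were tested between swap and control (edgeR's quasi-likelihood test, 13415 genes). A sum over cells cannot tell fewer choosing cells from less RNA per cell, so the choosing cells are given beside it. Members that passed only through the group in which they were high had to differ, and so the counts below are no support by themselves. No member was called, as for all genes (0%). At an unadjusted p below 0.05 there were 24 of the 60, 8 higher and 16 lower, against 2.3% of all genes and 145 of 515 class II ORs. DESeq2 called 18 of the 60 members and 127 of the 515 class II ORs. Of the members 4 were higher and 14 lower, against 31 and 96 of the class II ORs. Over all genes the shares called higher and lower were 0.425% and 0.917%. The median log2 fold change of the 60 was -0.32, against -0.21 over the class II ORs and -0.00 over all genes. By another measure, the ratio of UMIs pooled over each group and scaled to its total, the median log2 of the members was 0.00. There the 14 at 0 in both swap libraries and the 2 at 0 in both controls were set to a floor of 3 UMIs. The number of calls changed, for members and over all genes, when a control library was left out. Such a fit has 1 library in that group, which is taken to vary like the swap libraries, so no counts are given.

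Of the members lower in swap, the 4 with the smallest p had UMIs in both controls and none in either swap library. *Olfr672* had 0, 0, 675 and 1040 UMIs in swap replicates 1 and 2 and control replicates 1 and 2, *Olfr683* had 0, 0, 260 and 646, *Olfr676* had 0, 0, 183 and 327, and *Olfr584* had 0, 0, 75 and 143. Against a floor of 3 UMIs over the group they were 439-fold, 232-fold, 131-fold and 55.8-fold lower in swap, if each UMI is taken as independent. Their adjusted p-values were 0.180, 0.180, 0.180 and 0.208 (edgeR). The choosing cells were 3 and 5 in the controls for *Olfr672*, 5 and 8 for *Olfr683*, 1 and 2 for *Olfr676* and 1 and 1 for *Olfr584*, and none in swap. *Olfr665*, among the 20 most chosen, had the same pattern, with 0, 0, 453 and 1769 UMIs from 0, 0, 3 and 5 cells. Between 1 and 8 choosing cells per control library thus carried each of these differences. Outside the controls, *Olfr672* and *Olfr665* had 1875 and 327 UMIs in *gg8tTA* from 5 and 2 cells, and *Olfr683* had none there.

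Of the members higher in swap, *Olfr666* alone among the 4 with the smallest p was found in every swap and control library. It had 291, 446, 91 and 187 UMIs in the same order, from 4, 6, 1 and 3 cells, with a log2 fold change of 1.79 (SE 0.25, adjusted p = 0.233, edgeR). *Olfr608* had 361, 170, 0 and 0 UMIs, from 2, 1, 0 and 0 cells, and *Olfr622* had 43, 297, 0 and 0, from 1, 2, 0 and 0 cells. Against a floor of 3 UMIs over the group they were 230-fold and 148-fold higher in swap. This floor treats UMIs as independent, while each sum came from 1 or 2 cells per swap library. *Olfr658* had 62, 75, 1 and 0 UMIs, from 2, 1, 0 and 0 cells. The values of *Olfr622* and *Olfr658* rested on the removal of predicted doublets: with these kept, the log2 fold change went from 10.41 to 2.01 for *Olfr622* and from 7.05 to 1.18 for *Olfr658* (adjusted p = 1.00 for both, edgeR), while that of *Olfr608* was 11.34. At a minimum of 3 *Omp* UMIs, the log2 fold change of *Olfr608* went from 11.42 to 7.25. Over all kept cells the controls held 39 and 121 UMIs of *Olfr622*, against 144 and 488 in swap, and 64 and 62 of *Olfr658*, against 62 and 75. *Olfr608* likewise had UMIs in at least 1 control over all kept cells. All 4 were also found in *gg8tTA* (68, 298, 173 and 66 UMIs for *Olfr666*, *Olfr608*, *Olfr622* and *Olfr658*). In the most chosen OR, *Olfr692*, the sums were 723, 413, 190 and 101 UMIs from 9, 5, 2 and 1 cells, with both swap libraries above both controls (adjusted p = 1.00, edgeR). *Olfr544* had 274, 1021, 0 and 224 UMIs, also with both swap libraries above both controls, and *Olfr613* had 44, 718, 89 and 0, so that its swap and control values overlapped.

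The UMIs per choosing cell gave no such split. The median over class I cells was 47 and 79 UMIs in swap and 61 and 74 in control, a difference of -4.5 UMIs between the group means (exact permutation test, p = 1). The whole array summed to 451 and 689 CPM in swap and 630 and 624 CPM in control (exact permutation test, p = 1). The 2 swap libraries differed from each other in both measures by more than the groups did. None of the 8 swap and control comparisons of this kind had an adjusted p below 0.533 (exact permutation tests, Benjamini-Hochberg).

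In immature OSNs (at least 10 *Gap43* UMIs and no more *Omp* than *Gap43*), the array was chosen by 7.74% and 5.70% of the choosing cells of swap replicates 1 and 2 (39 and 15 cells) and by 9.87% and 8.33% of those of control replicates 1 and 2 (53 and 19 cells). In *tetOP2* the share was 2.71% (7 cells) and in *gg8tTA* 7.69% (21 cells). These immature class I cells chose 22, 11, 37, 18, 7 and 21 different members. *Nqo1* was found in 64.1% to 90.5% of them, below the value of the mature class I cells in each library.

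The *tetOP2* library had a smaller share of cells that chose the array than *gg8tTA*, but a close share among the cells that did not choose *Olfr17*. In *tetOP2*, 380 of 651 choosing cells chose *Olfr17* against 1 of 601 in *gg8tTA*. The array was chosen by 31 cells in *tetOP2* and 72 in *gg8tTA*, or by 4.76% and 12% of all choosing cells, and by 11.4% of 271 and 12% of 600 after *Olfr17* cells were set aside. With 1 library a group there was no test. The array cells of *tetOP2* chose 26 members and those of *gg8tTA* 45, and at 31 cells both stood alike, at 26.0 and 25.2. They shared 11 members (42.3% of the 26 and 24.4% of the 45). The largest numbers were 3 cells for *Olfr666* in *tetOP2* and 5 for *Olfr672* in *gg8tTA*, where the other library had 1 and 0. No member had 10 cells in both libraries together, so no ratios are given. *Olfr17* UMIs were present in 20 of the 31 array cells of *tetOP2* (64.5%), at a median of 1 and at most 19 UMIs, against a median of 99 in cells that chose *Olfr17*. In *gg8tTA* none of the 72 array cells had one.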

How the data were processed

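Single-cell RNA-seq of main olfactory epithelium was analyzed from 6 mouse libraries, of which 2 were swap, 2 control, 1 *tetOP2* and 1 *gg8tTA*. The authors deposited counts, namely raw UMI counts per gene and cell barcode made with Cell Ranger with introns included and no normalization. The labels name the mm10 build. The methods describe the v3 kit and whole dissociated epithelium, while the series text speaks of sorted cells. Barcodes of the *tetOP2* and *gg8tTA* libraries came from another barcode list than those of the other libraries, so the 2 experiments were not tested against each other, although medians over the cells of an OR pool them. The class I genes and all gene lists were chosen with earlier results of these data known.

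The minimum for a cell was 1000 UMIs and 500 genes. Predicted doublets, those scored highest against simulated pairs of cells at a rate of 0.8% per 1000 cells, were removed. This left 685 to 1303 mature OSNs per library (*Omp* of 10 UMIs or more, and above *Gap43*). The chosen OR was the one with the most UMIs, at least 3. Equal numbers of cells were compared by analytic rarefaction. Counts summed per library were tested with edgeR 4.0.16 (glmQLFit and glmQLFTest, TMM, filterByExpr) in R 4.3.3 over all genes, with Benjamini-Hochberg adjustment, and with DESeq2 1.42.0 as the alternative. The swap comparison had no covariates, and the class comparisons had the library as a block. Single values were tested with exact two-sided permutation tests. On simulated data with 200 changed genes, edgeR recovered 175 in the swap comparison (9 false calls), 198 in the class comparison (7) and 197 in *Nqo1*-positive cells (10). The simulation gave every gene the same dispersion and changed only well-expressed genes. It did not model ORs whose sums rest on a few cells, so it does not measure the power to call them. Library is the unit of replication. Nothing in the sources states more than that the study had biological replicates, so each p-value measures the spread between these libraries.

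The ORs described by name were the 20 most chosen, those at either end of *Nqo1* share and level, the 4 with the smallest p in each direction of the swap comparison and *Olfr545*. The rule for level and for *tetOP2* ratios set minimums that no OR met (20 choosing cells, and 10 cells in both libraries), so ORs with at least 10 or 5 cells are shown instead, a choice made after the values were seen. From each class comparison the 5 genes with the smallest adjusted p in each direction were named. Sequence words of 31 bases and coding sequences came from GENCODE on GRCm38. Alternatives were DESeq2, no count filter, a replicate block, other OR and *Omp* minimums, doublets kept, *Olfr17* cells kept, thinning to 3000 UMIs and each library left out in turn.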

Additional observations from a re-analysis of the deposited data

Results flagged for a closer look

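In the median UMIs of the chosen OR, *tetOP2* and *gg8tTA* went in opposite directions between the classes. Class I cells were below class II cells by a log2 difference of -0.30 in *tetOP2* and above them by 0.20 in *gg8tTA*. Each is 1 library, with 31 and 72 class I cells, and the difference between them was not tested. No measure compared over the 6 libraries held a library far from the others by Dixon's criterion (95% critical value 0.625), which chance exceeds in about 1 of 20 groups. The closest was *gg8tTA* in this same measure, with a gap of 0.586 of the whole range.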

How the results depend on the processing

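No member was called between swap and control by edgeR, but 18 were by DESeq2, and 0 to 32 when a library was left out. By edgeR with the replicate block also 0 members were called. The correlation of the replicate differences was 0.244 over 13415 genes, but with only 2 pairs the numbers 1 and 2 are shared names and do not pair the mice. The class comparison called 366 genes, 713 without the filter on low counts, and 308 to 465 with a library left out. Among *Nqo1*-positive cells it called 120, 70 by DESeq2, 284 without the filter, and 92 to 129 with a library left out. The swap minus control share of class I cells (0.752 points) turned to -0.0223 without control replicate 2 and ran to 1.53 without control replicate 1. The second OR difference (2.77 points, exact permutation test, p = 0.03125) was 0.892 points at a minimum of 1 UMI, 0.761 at 10 UMIs, 2.15 with doublets kept, 2.23 without sequence-sharing second ORs and 0.622 also without neighbours, and none of these passed. With a library left out it was 2.24 to 3.21, where 5 libraries allow no p below 0.0625. The *tetOP2* minus *gg8tTA* share of class I cells was -7.22 points, and -0.561 with *Olfr17* cells set aside. The difference in different members at 72 cells stayed between -16.2 and -14.7, and that in chosen UMIs (log2) between -0.35 and -0.16, under every alternative run. The small number of choosing cells per member and library (at most 12) limits every statement on a single OR.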
